A study of Neurospora crassa with 24 samples.

Results

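The carotenoid biosynthesis genes of Neurospora crassa were examined in all 24 RNA-seq libraries of the series. The genes were al-3 (NCU01427), al-2 (NCU00585), al-1 (NCU00552), cao-2 (NCU11424) and ylo-1 (NCU04013), 5 of the 9758 genes in the table of counts. They were chosen by name, for the role of their products in the synthesis of the pigment neurosporaxanthin, and no measured value entered the rule. Earlier results of these data were known when the genes were chosen. All 5 passed the filter on low counts in each of the 4 sets of libraries that were fitted, and the lowest count of any of them in any library was 21, for al-1 in wild-type submerged mycelia.

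The study compared the wild type with a mutant that lacks ve-1, the gene for a component of the velvet complex, a fungal regulator of development and metabolism. Both strains carry the OR74A background, and all mutant libraries come from the same Δve-1 genotype. Submerged vegetative mycelia grown in liquid medium for 48 h (V) stayed in darkness or got white light during the last 30 min, and 2 libraries represent each combination of strain and light. The stage before conidiation was induced (S), mycelia from 24 h of dark liquid culture, is represented by 4 libraries of each strain. Aerial tissue (A15) was taken 15 h after mycelia had been moved to solid medium, either without light or with 30 min of light at the end, again with 2 libraries per combination. The labels number the replicates but do not say that each came from a separate culture. The P values therefore set differences of group means against the spread between these libraries, estimated over all groups of a fit. V and S differed in vessel and time of growth, and the labels and the methods disagree on the temperature of S and A15. V and S values are therefore set side by side and were not tested against each other.

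Neurosporaxanthin gives the mycelia and conidia of N. crassa their orange color. Its synthesis starts from geranylgeranyl pyrophosphate, made by AL-3, from which the bifunctional AL-2 makes phytoene and later closes the ring at the end of the chain. AL-1 desaturates phytoene, CAO-2 cleaves torulene, and YLO-1 oxidizes the resulting aldehyde to neurosporaxanthin. Mycelia grown in the dark are pale and turn orange after light, which acts through the White Collar complex (WC-1 and WC-2), whereas conidia accumulate the pigment also in the dark.

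The 5 genes lie on 4 chromosomes of the NC12 assembly. al-2 (I:7920916-7924255) and al-1 (I:8029857-8032395) are both on the minus strand of linkage group I, 105601 bases and 35 annotated genes apart. al-3 is at V:4030155-4032913, ylo-1 at VI:2441355-2444495 and cao-2 at VII:2483-4931, all on the minus strand, and only 1 annotated gene lies nearer to that end of the cao-2 chromosome. al-3 overlaps NCU01426, on the other strand, by 32 bases, and al-2 begins 11 bases from NCU00584, also on the other strand. The authors counted reads with opposing-strand specificity. No other member overlaps an annotated gene.

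Library totals were between 14010994 and 21885041 counts, so that 3 counts, taken as the smallest amount the depth can show, corresponded to 0.137 to 0.214 CPM, the counts of a gene scaled to a fixed library total. CPM values used the TMM method over the 24 libraries. The check of the strain labels held: ve-1 was between 69.3 and 220 CPM in the 12 wild-type libraries and between 0.785 and 17.3 CPM in the 12 mutant libraries. Mutant S replicate 1 stood apart with 17.3 CPM of ve-1, against 1.28 to 3.18 in the other 3 mutant S libraries. The replicates of dark mutant A15 differed from each other in the carotenoid genes, as described below. Several of the results that rest on mutant S replicate 1 or dark mutant A15 replicate 1, not all, are given also without that library. The labels of S and A15 were checked with 4 markers of conidiating aerial tissue (eas, con-6, con-10 and fl). All 4 were called higher in A15 than in S in both strains. For dark A15, 17.5% of all genes tested were called higher in wild-type and 25.1% in mutant libraries. Not every marker set A15 apart from V. Wild-type light-exposed V overlapped wild-type dark A15 in con-6 (787.5 to 1178 against 527.4 to 1028 CPM) and con-10 (104 to 308.3 against 245.4 to 607.2). Mutant V and A15 overlapped in neither gene. eas (at most 0.662 CPM in V, at least 28180 in A15) and fl (119.9 and 391.5) separated V from A15.

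**Figure D1:**
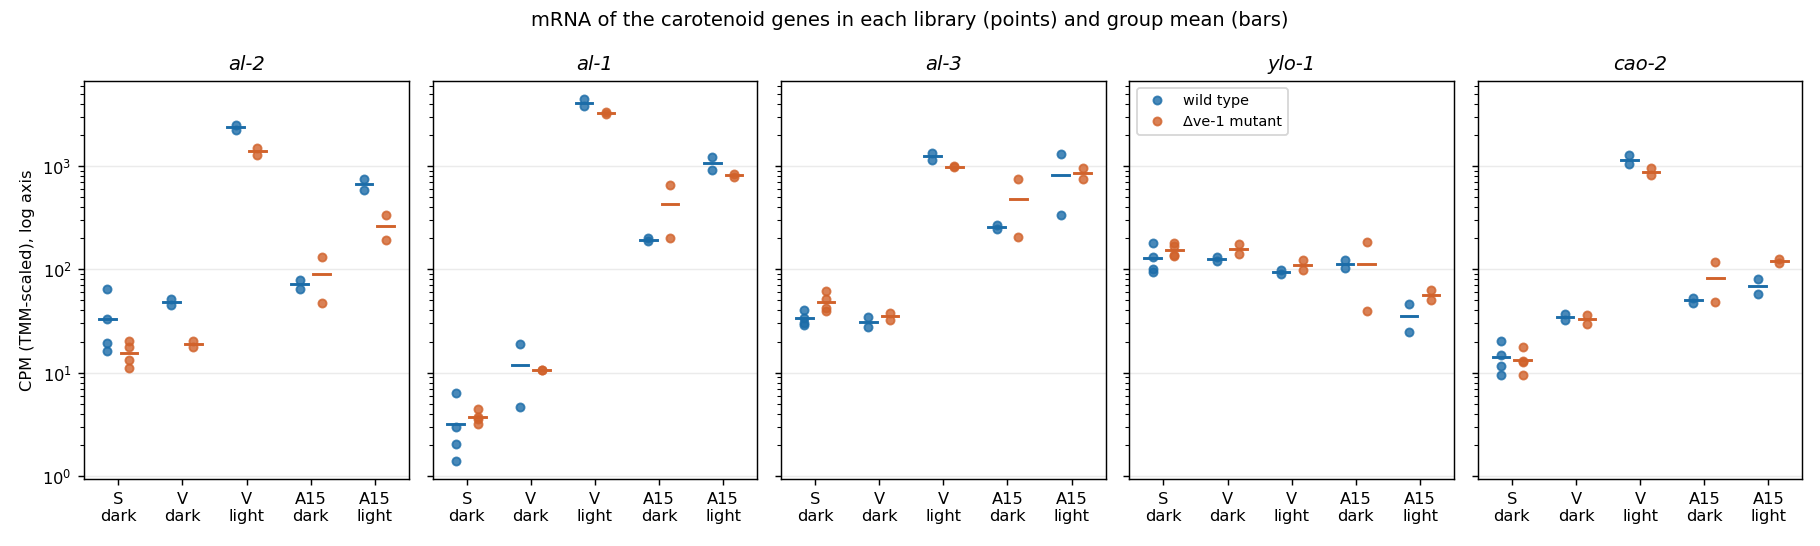
CPM of the 5 carotenoid genes, in the order of their place on the chromosomes, in each of the 24 libraries (points, log axis) with the mean of each strain in each stage and light condition (bars). al-2, al-1, al-3 and cao-2 stand highest in light-exposed V in both strains, where al-1 reached 4446 CPM, whereas ylo-1 stays between 24.9 and 185 CPM throughout.

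Per kilobase of gene span (introns included), the order of the genes in V turned over with light. In dark wild-type V, ylo-1 had the highest level, 40.3 ± 2.19 CPM per kb (SD, n = 2), followed by al-2 (14.46 ± 1.49), cao-2 (14.1 ± 1.22), al-3 (11.3 ± 1.88) and al-1 (4.66 ± 4.01). The ranges of al-2 and cao-2 overlapped, and those of the other neighbors in this order did not. After light, al-1 came first with 1623 ± 181 CPM per kb, then al-2 (713 ± 54.8), cao-2 (473 ± 65.6), al-3 (449.5 ± 48.3) and ylo-1 (30.2 ± 2.21), and only the ranges of cao-2 and al-3 overlapped. al-1 thus moved from the last place to the first and ylo-1 from the first to the last.

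The order in wild-type aerial tissue was another. In dark A15, al-3 (93.5 ± 6.74 CPM per kb, n = 2) and al-1 (76.6 ± 4.02) came before ylo-1 (36.1 ± 4.30), al-2 (21.4 ± 2.79) and cao-2 (20.5 ± 1.503), the last pair with overlapping ranges. In light-exposed A15, al-1 (420.0 ± 87.1) and al-3 (299.6 ± 252) overlapped, al-2 was at 202 ± 35.2 with a range inside that of al-3, cao-2 at 28.3 ± 6.75 and ylo-1 at 11.3 ± 4.79. In wild-type S, ylo-1 was at 40.6 ± 12.7 CPM per kb (n = 4) and the others were lower, from al-3 at 12.2 ± 1.92 to al-1 at 1.26 ± 0.883.

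To follow the response to light in vegetative mycelia, V libraries after light were compared with those in the dark. The mRNAs of al-1, al-2, al-3 and cao-2 rose strongly in both strains, from 27.0-fold (cao-2 in the mutant) to 344-fold (al-1 in the wild type), and these genes stood among the 25 with the highest log2FC of 7760 tested in each strain. The 4 genes were called at an adjusted P under 0.05, 4 of 5 members in either strain, against 7.98% of the genes tested that were called higher for the wild type and 7.07% for the Δve-1 mutant. They also passed the thresholds of the study (log2FC of 2 or more and adjusted P under 0.001), against 1.25% of the genes for the wild type and 0.979% for the Δve-1 mutant. The median log2FC of the 5 members was 5.31 for the wild type and 4.83 for the Δve-1 mutant, and that of all genes was -0.01 and 0.00. ylo-1 was the exception. Of the markers of conidiation, con-6 (log2FC 8.78 for the wild type and 8.06 for the Δve-1 mutant), con-10 (7.74 and 6.41) and fl (2.54 and 2.24) also rose in V with light, 3 of 3 tested, whereas eas did not exceed 0.662 CPM in any V library and was filtered out.

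al-3, for the geranylgeranyl pyrophosphate synthase, had 34.8 and 27.5 CPM in the dark wild type and 1146 and 1334 CPM after light, and 37.6 and 32.6 CPM in the dark mutant and 991 and 989 CPM after light. Dark and light values were far apart in both strains. The log2FC was 5.31 (SE 0.188, adjusted P = 1.22e-06) in the wild type and 4.83 (SE 0.184, adjusted P = 1.78e-06) in the mutant.

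al-2, for the phytoene synthase and cyclase, had 51.8 and 44.8 CPM in the dark wild type and 2510 and 2251 CPM after light. The mutant had 20.1 and 17.6 CPM in the dark and 1502 and 1276 CPM after light. Both conditions were lower in the mutant, with no overlap, and in both strains light and dark were separate. The log2FC was 5.62 (SE 0.184, adjusted P = 1.06e-06) in the wild type and 6.22 (SE 0.191, adjusted P = 8.83e-07) in the mutant.

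al-1, for the phytoene desaturase, had 19.0 and 4.64 CPM in the dark wild type and 3795 and 4446 CPM after light, and 10.6 and 10.5 CPM in the dark mutant and 3199 and 3374 CPM after light. The wild-type libraries in the dark differed 4.10-fold from each other, much more than those of the mutant, and al-1 took up to 0.386% of all counts of a library after light. The log2FC was 8.43 (SE 0.603, adjusted P = 3.47e-05) in the wild type, the 4th highest of all genes, and 8.30 (SE 0.600, adjusted P = 4.51e-05) in the mutant, the 3rd highest. Leaving out each wild-type V library in turn gave 7.75 to 9.78 in the wild type.

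cao-2, for the torulene dioxygenase, had 36.7 and 32.5 CPM in the dark wild type and 1044 and 1271 CPM after light, and 29.4 and 36.4 CPM in the dark mutant and 814 and 950 CPM after light. Light and dark were again separate. The log2FC was 5.06 (SE 0.201, adjusted P = 1.62e-06) in the wild type and 4.76 (SE 0.198, adjusted P = 2.18e-06) in the mutant.

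ylo-1, for the aldehyde dehydrogenase of the last step, had 131 and 122 CPM in the dark wild type and 99.6 and 89.8 CPM after light, and 175 and 142 CPM in the dark mutant and 123 and 98.4 CPM after light. Values after light were below those in the dark in both strains, with no overlap, but the change was small. The log2FC was -0.43 (SE 0.148, adjusted P = 0.0976) in the wild type and -0.51 (SE 0.147, adjusted P = 0.0583) in the mutant, neither of which passed the test in edgeR. With the replicate number of the titles as a block, edgeR called the fall in both strains (adjusted P = 0.00689 and 0.00193). Same-numbered libraries correlated in V (0.369 to 0.472 in their deviations from the group means), but the labels do not say that a number marks a shared culture or day. DESeq2 on the same libraries called the change in the mutant (adjusted P = 0.0247) and not that in the wild type (adjusted P = 0.0915).

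The response to light was then compared between the strains in V, as an interaction of strain and light. None of the 5 members was called by edgeR, nor was any other gene, so the background was 0% (189 of 7760 genes had an unadjusted P under 0.05, and DESeq2 called 2 genes but no member). al-2 differed most, with a log2FC in the mutant that was larger by 0.60 (95% CI 0.10 to 1.10, unadjusted P = 0.0230). The differences of the others were -0.47 for al-3 (95% CI -0.99 to 0.04), -0.30 for cao-2 (-0.85 to 0.25), -0.13 for al-1 (-1.60 to 1.34) and -0.08 for ylo-1 (-0.55 to 0.39). The interval of al-1, whose dark wild-type libraries were the farthest apart, was the widest.

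**Figure D2:**
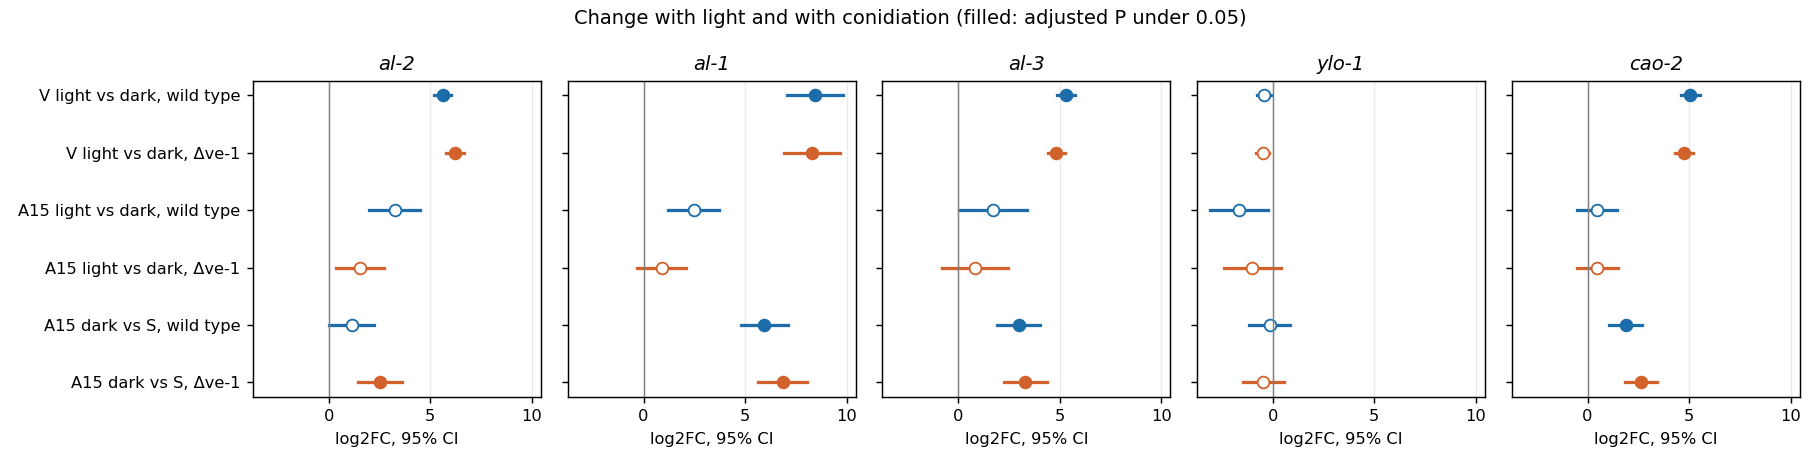
log2FC of each carotenoid gene with its 95% CI (horizontal axis) for light against dark in V and in A15 and for dark A15 against S, in the wild type (blue) and the Δve-1 mutant (orange). Filled points passed an adjusted P of 0.05 in edgeR. In V, al-2, al-1, al-3 and cao-2 lie between 4.76 and 8.43 with filled points, and in A15 none of the points for light is filled.

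In aerial tissue the log2FC with light of al-1, al-2, al-3 and cao-2 was smaller than in V in both strains. edgeR called none of the 5 members in A15 in either strain, and called no gene at all, so the background was 0% for the wild type and 0% for the Δve-1 mutant. Genes with an unadjusted P under 0.05 numbered 759 of 8193 in the wild type, 4 members among them (al-1, al-2, al-3 and ylo-1), and 1004 in the mutant, with al-2 among them. DESeq2 called 219 genes in the wild type, with al-1 and al-2 among them, and 285 in the mutant, with no member. Replicates in A15 spread more than in V, with a common dispersion of 0.118 against 0.021.

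al-2 in the wild type went from 78.2 and 65.0 CPM in dark A15 to 758 and 592 CPM after light, and in the mutant from 133 and 47.1 CPM to 334 and 191 CPM. Light and dark did not overlap in either strain. Its log2FC was 3.25 (SE 0.553, adjusted P = 0.107) in the wild type and 1.52 (SE 0.519, adjusted P = 0.306) in the mutant. The call in the wild type depended on the fit: DESeq2 gave an adjusted P of 3.05e-07, a fit of all 24 libraries gave 0.00962 and a fit of only the groups compared gave 0.0375.

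al-1 in the wild type went from 202 and 187 CPM to 910 and 1223 CPM, and in the mutant from 655 and 203 CPM to 847 and 777 CPM. Its log2FC was 2.47 (SE 0.550, adjusted P = 0.185, and 3.44e-04 in DESeq2) in the wild type and 0.89 (SE 0.525, adjusted P = 0.535) in the mutant. Dark mutant replicate 1 was thus close to the values after light and replicate 2 close to the dark wild type.

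al-3 had 271 and 245 CPM in dark wild-type A15 and 336 and 1317 CPM after light, so that only 1 of the libraries after light stood far above the dark. In the mutant it had 751 and 205 CPM in the dark and 967 and 758 CPM after light. The log2FC was 1.70 (SE 0.735, adjusted P = 0.524) and 0.82 (SE 0.720, adjusted P = 0.699). Without wild-type light replicate 2, the value in the wild type was 0.38, and without light replicate 1 it was 2.38. The same libraries differed in markers of conidiating tissue: eas, for the hydrophobin of conidia, had 28180 CPM in light replicate 1 and 84140 in replicate 2, and fl, for a transcription factor of conidiation, had 391.5 and 1126 CPM. The part of that difference in the values of al-3 was not tested.

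The size of the log2FC with light in A15 was smallest for cao-2 among the 5 members. It had 52.9 and 47.7 CPM in the dark wild type and 57.7 and 81.0 CPM after light, and 48.3 and 117 CPM in the dark mutant and 125 and 115 CPM after light. The log2FC was 0.48 in both strains (95% CI -0.52 to 1.47 in the wild type, -0.51 to 1.48 in the mutant). ylo-1 did not pass the test, with 104 and 123 CPM in the dark against 46.2 and 24.9 CPM in the wild type, and 185 and 39.8 CPM against 62.8 and 50.8 CPM in the mutant. Its groups overlapped in the mutant and not in the wild type, and the log2FC was -1.66 (SE 0.629, adjusted P = 0.442) and -1.01 (SE 0.619, adjusted P = 0.550).

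The dark mutant A15 replicates differed from each other in every carotenoid gene. Replicate 1 had 3.22-fold more al-1, 2.81-fold more al-2, 3.67-fold more al-3 and 4.64-fold more ylo-1 than replicate 2, and cao-2 was 2.43-fold lower. Replicate 1 was also higher in fpp (133 against 47.8 CPM), for the farnesyl pyrophosphate synthase, and lower in vvd (14.7 against 42.7 CPM), for a blue-light photoreceptor. The markers of conidiation differed less: eas had 144300 and 172300 CPM, con-6 1766 and 2429, con-10 2262 and 1831, and fl 1098 and 1271. Without replicate 1, with a lone dark mutant library assumed to vary like the other groups, edgeR called al-1 (log2FC 1.95, adjusted P = 0.0281) and al-2 (2.43, adjusted P = 0.0231) higher after light in the mutant, al-3 had 2.02 (adjusted P = 0.128), cao-2 -0.02 and ylo-1 0.46. Leaving out each of the 4 mutant A15 libraries in turn gave 0.29 to 1.95 for al-1, 0.97 to 2.43 for al-2 and 0.18 to 2.02 for al-3. The light response of the mutant in A15 therefore rests on which of these libraries is used. Which dark replicate is the unusual one was not tested.

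No member was called for a strain difference in the light response of A15, with a background of 0% (201 of 8193 genes had an unadjusted P under 0.05, with al-2 as the only member, and DESeq2 called 2 genes and no member). The differences were -1.73 for al-2 (95% CI -3.38 to -0.09), -1.58 for al-1 (-3.27 to 0.11), -0.88 for al-3 (-3.18 to 1.43), 0.00 for cao-2 (-1.41 to 1.42) and 0.65 for ylo-1 (-1.32 to 2.62). Over fits that left out each of the 8 A15 libraries in turn, the differences were -2.27 to -0.80 for al-2 and -2.17 to -0.51 for al-1. Without dark mutant replicate 1 they were -0.80 for al-2 and -0.51 for al-1, and none was called.

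Whether the response to light differed between V and A15 was tested in a fit of all 24 libraries. In the wild type the log2FC in V exceeded that in A15 for al-1 by 5.98 (SE 0.903, adjusted P = 0.00209), for al-3 by 3.63 (SE 0.739, adjusted P = 0.0346) and for cao-2 by 4.60 (SE 0.574, adjusted P = 2.48e-04). al-2 was not called, with a difference of 2.39 (SE 0.759, adjusted P = 0.385), nor was ylo-1 (1.26, 95% CI -0.15 to 2.66). These 3 of 5 members stand against 0.314% of all genes that were called higher in V, 26 of 8269.

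In the mutant the differences were 7.36 for al-1 (SE 0.930, adjusted P = 4.19e-04), 4.66 for al-2 (SE 0.787, adjusted P = 0.00819), 3.97 for al-3 (SE 0.742, adjusted P = 0.0190) and 4.21 for cao-2 (SE 0.570, adjusted P = 8.37e-04), 4 of 5 members against 0.339% of all genes, and 0.47 for ylo-1 (95% CI -0.93 to 1.87). Without dark mutant A15 replicate 1 the differences of these 4 members were 6.28, 3.73, 2.74 and 4.71. Leaving out each of the 8 mutant libraries in turn gave 6.28 to 7.97 for al-1 and 3.73 to 5.22 for al-2. It gave 2.74 to 4.62 for al-3 and 3.44 to 4.71 for cao-2. The call of al-3 in the wild type was lost when any of 7 of the 8 wild-type libraries was left out (adjusted P up to 0.285), with scaling by library size (0.122), with the title number as a block (0.0519) and with only the groups compared (0.0933). With only the groups compared, al-2 was called in the wild type (adjusted P = 0.0396). Scaling by library size also lost the call of al-3 in the mutant (adjusted P = 0.0584). In the mutant, that of al-3 was lost without any of 6 libraries (up to 0.224) and that of al-2 without any of 3 (up to 0.147), and both were lost with only the groups compared (0.123 and 0.0578). V and A15 differed in tissue, medium and time of growth, and by the methods also in temperature. These cannot be told apart here.

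The level of al-1, al-2 and cao-2 after light in A15 did not reach that in V. In the wild type al-1 had 1066 ± 221 CPM in light-exposed A15 (n = 2) against 4121 ± 460 in V, al-2 674.5 ± 118 against 2381 ± 183 and cao-2 69.3 ± 16.5 against 1158 ± 161, and none of these pairs overlapped. al-3 had 827 ± 694 CPM in wild-type A15 and 1240 ± 133 in V, with overlap. In the mutant al-3 had 863 ± 148 CPM in light-exposed A15 against 990 ± 1.74 in V, without overlap. In the dark wild type the order was the other way for these 4 genes, and their ranges did not overlap. Levels were not tested between V and A15, in the dark or after light. How many of all genes were so separated was not counted. al-1 had 194 ± 10.2 CPM in A15 against 11.8 ± 10.2 in V, al-3 258 ± 18.6 against 31.2 ± 5.20, al-2 71.6 ± 9.31 against 48.3 ± 4.97 and cao-2 50.3 ± 3.68 against 34.6 ± 2.99.

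Conidiation in the dark was followed by comparing dark A15 with S. al-1, al-3 and cao-2 rose in both strains and al-2 rose in the mutant. This was 3 of 5 members called higher in the wild type, against 17.5% of the genes tested, and 4 of 5 in the mutant, against 25.1%. The median log2FC of the members was 1.87 and 2.63, and that of all genes 0.02 and 0.10. In bulk samples such as these, a different share of cells of a type and a different amount of RNA per cell cannot be told apart.

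al-1 had 1.39, 2.96, 2.05 and 6.42 CPM in wild-type S and 202 and 187 CPM in dark A15. The mutant had 4.42, 3.16, 3.74 and 3.57 CPM in S and 655 and 203 CPM in dark A15. All A15 values were far above all S values. The log2FC was 5.95 (SE 0.548, adjusted P = 2.42e-06) in the wild type and 6.84 (SE 0.564, adjusted P = 4.99e-07) in the mutant.

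al-3 had 30.2, 34.2, 40.8 and 29.1 CPM in wild-type S against 271 and 245 in dark A15, and 39.2, 41.9, 52.1 and 61.6 CPM in mutant S against 751 and 205. Its log2FC was 2.97 (SE 0.490, adjusted P = 4.26e-04) and 3.30 (SE 0.493, adjusted P = 1.13e-04). The stages did not overlap in either strain.

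al-2 had 16.1, 19.4, 33.1 and 64.3 CPM in wild-type S, a 4.01-fold spread, against 78.2 and 65.0 in dark A15. It had 20.2, 11.2, 17.7 and 13.2 CPM in mutant S against 133 and 47.1. In the wild type the highest S library was just under the lowest A15 library, and the log2FC of 1.13 (SE 0.516, adjusted P = 0.117) was not called. In the mutant it was 2.52 (SE 0.515, adjusted P = 0.00131). Without wild-type S replicate 4, the library with 64.3 CPM, the wild-type value was 1.68 and was called (adjusted P = 0.0206).

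cao-2 had 11.5, 9.59, 14.7 and 20.3 CPM in wild-type S against 52.9 and 47.7 in dark A15, and 17.6, 9.55, 12.7 and 12.98 CPM in mutant S against 48.3 and 117. Stages were separate in both strains. The log2FC was 1.87 (SE 0.377, adjusted P = 0.00219) and 2.63 (SE 0.378, adjusted P = 7.93e-05).

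ylo-1 was again unlike the others, with 94.4, 102, 182 and 132 CPM in wild-type S against 104 and 123 in dark A15, and 135, 138, 179 and 170 CPM in mutant S against 185 and 39.8. The stages overlapped, and the log2FC was -0.14 (95% CI -1.15 to 0.86) in the wild type and -0.47 (95% CI -1.49 to 0.55) in the mutant. Without dark mutant A15 replicate 1 the mutant value was -1.98, and without replicate 2 it was 0.25.

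Without dark mutant A15 replicate 1, al-1, al-2, al-3 and cao-2 remained called in the mutant, with log2FC of 5.75, 1.57, 2.06 and 3.13. Without mutant S replicate 1, the library with the most ve-1 mRNA, the same 4 were called, with 6.96, 2.69, 3.22 and 2.83. Scaling by library size alone moved the median log2FC of all genes from 0.02 to 0.44 in the wild type and from 0.10 to 0.36 in the mutant, and with it al-2 in the wild type was called (log2FC 1.62, adjusted P = 0.0254) and ylo-1 changed sign (0.28, not called).

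Whether conidiation acted differently in the strains was tested as an interaction of strain and stage in the dark. No member was called, against 0.0243% of the genes, 2 of 8239. No member had an unadjusted P under 0.05, and DESeq2 called no member and 189 genes. The differences, mutant minus wild type, were 1.39 for al-2 (95% CI -0.23 to 3.01), 0.89 for al-1 (-0.69 to 2.47), 0.76 for cao-2 (-0.42 to 1.94), 0.33 for al-3 (-1.20 to 1.85) and -0.32 for ylo-1 (-1.74 to 1.09). Leaving out each of the 12 libraries in turn gave -0.20 to 1.503 for al-1 and -0.91 to 0.98 for al-3. Both of these lowest values came without dark mutant A15 replicate 1.

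Light-exposed A15 was also compared with dark S, a contrast that holds both conidiation and light and shares its S libraries with the one above. al-1, al-2, al-3 and cao-2 were higher in A15 in both strains, 4 of 5 members, against 19.7% of the genes called higher for the wild type and 24.9% for the Δve-1 mutant. ylo-1 was lower, the remaining 1 of 5 members, against 13.1% and 20.8% of the genes called lower. The median log2FC of the members was 4.35 for the wild type and 4.04 for the Δve-1 mutant, and that of all genes 0.05 and 0.04.

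In the wild type the log2FC was 8.39 for al-1 (SE 0.597, adjusted P = 4.33e-07), 4.65 for al-3 (SE 0.511), 4.35 for al-2 (SE 0.533), 2.32 for cao-2 (SE 0.377) and -1.84 for ylo-1 (SE 0.516, adjusted P = 0.0134). In the mutant it was 7.74 for al-1 (SE 0.583, adjusted P = 1.84e-07), 4.12 for al-3, 4.04 for al-2, 3.14 for cao-2 and -1.48 for ylo-1 (SE 0.505, adjusted P = 0.0260). The call of ylo-1 was lost in the wild type without light replicate 2 (-1.48, adjusted P = 0.157), in the mutant without either light library or S replicate 3 (adjusted P up to 0.168) and with the title number as a block (-1.24, adjusted P = 0.0535), and in both strains with scaling by library size (-1.21 and -0.98).

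**Figure D3:**
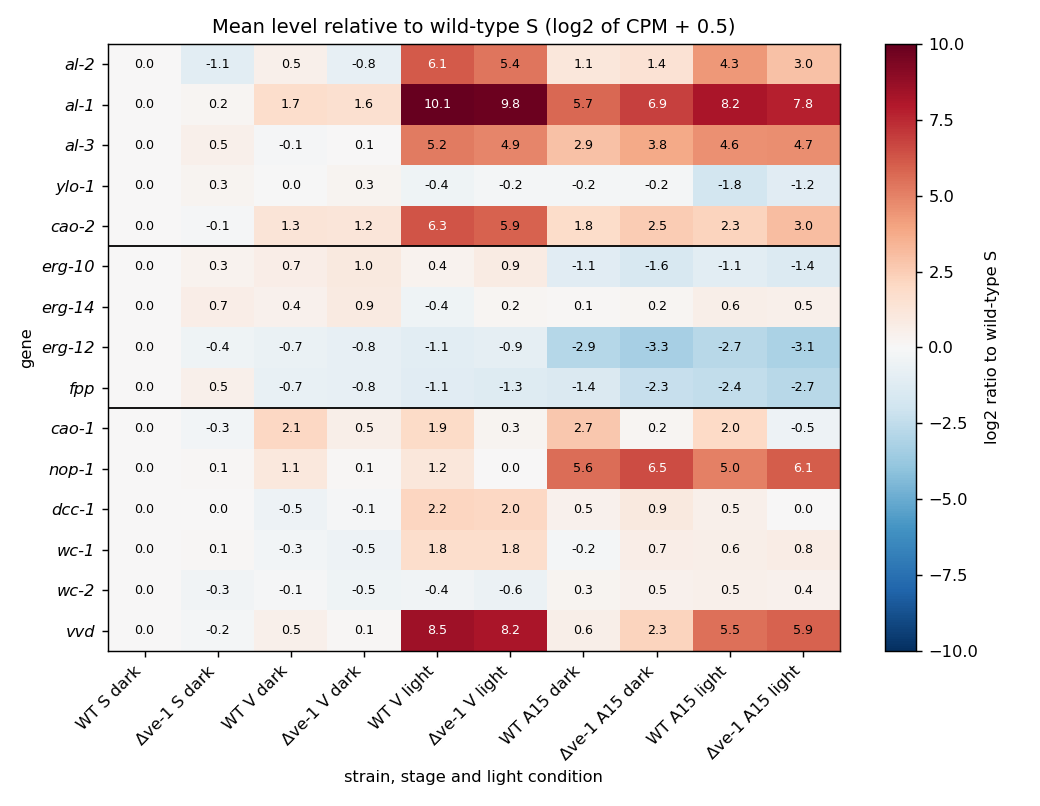
Mean level of each gene (rows) in each strain, stage and light condition (columns) as the log2 ratio to wild-type S, from group means of CPM with 0.5 added, with red above and blue below that level. The rows are the 5 carotenoid genes (top), the 4 matched genes of the precursor pathway (middle) and 6 related genes (bottom). al-1 reaches 10.12 in light-exposed wild-type V, and no precursor gene exceeds 0.99.

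The mutant was compared with the wild type in each of the 5 conditions, to see which carotenoid mRNAs depended on the strain. Only al-2 was called, lower in the mutant in V in the dark and after light. This was 1 of 5 members called lower in dark V, against 6.28% of the genes, and 1 of 5 in light-exposed V, against 5.88%. No member was called in S, where 0.655% of the genes were, in dark A15 (3.08%) or in light-exposed A15 (4.65%).

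**Figure D4:**
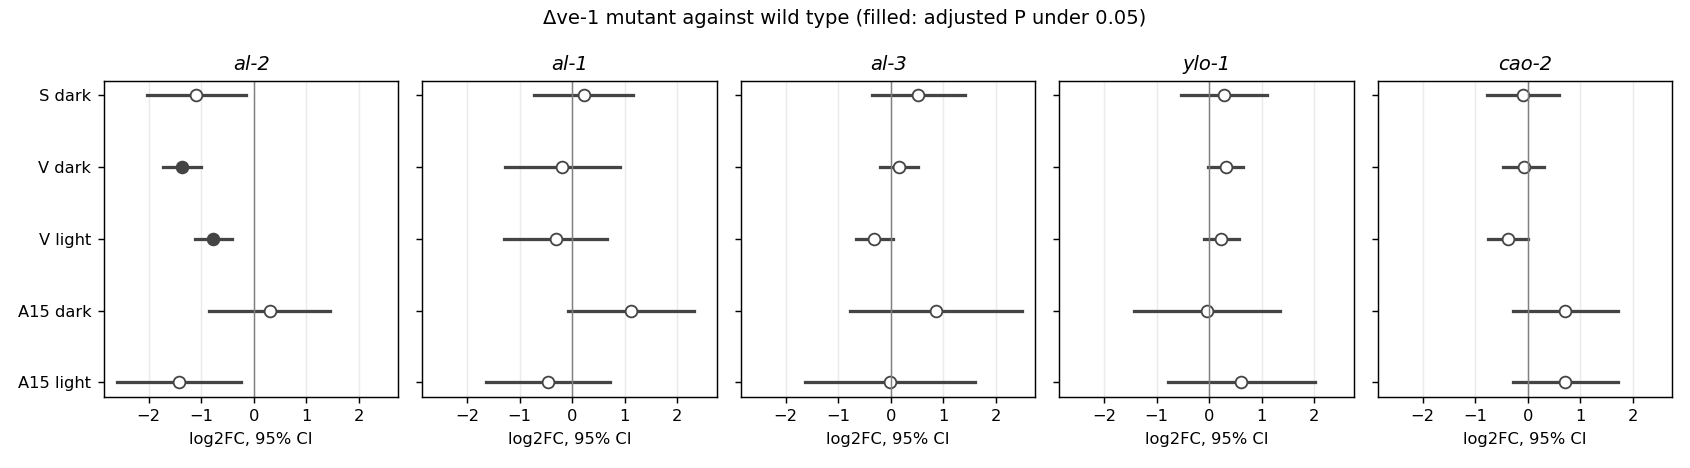
log2FC of the Δve-1 mutant against the wild type for each carotenoid gene, with its 95% CI (horizontal axis), in S, V and A15. Filled points passed an adjusted P of 0.05 in edgeR. The filled points are al-2 in V, at -1.37 in the dark and -0.77 after light.

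In V the log2FC of al-2 was -1.37 in the dark (SE 0.160, adjusted P = 0.00141) and -0.77 after light (SE 0.151, adjusted P = 0.0155), from the values given above. The mutant thus had 18.9 ± 1.72 CPM in the dark against 48.3 ± 4.97 in the wild type (n = 2), and 1389 ± 160 against 2381 ± 183 after light. Neither passed the thresholds of the study. The call after light was lost without either mutant light library (adjusted P up to 0.130), and both calls were lost in a fit of all 24 libraries (adjusted P = 0.644 and 1.00), whose dispersion of 0.115 includes the more variable A15 and S, whereas DESeq2 kept both (7.76e-14 and 2.24e-05). Of the markers of conidiation, con-10 (log2FC -2.58, adjusted P = 0.0307) and fl (-0.55, adjusted P = 0.0238) were also lower in the mutant in light-exposed V and con-6 was not called (-0.66), and none of these 3 was called in dark V. Their part in the difference of al-2 was not tested.

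al-2 was not called in the other conditions. In S, the log2FC was -1.10 (95% CI -2.04 to -0.15, adjusted P = 0.234), and the mutant values of 11.2 to 20.2 CPM overlapped those of the wild type of 16.1 to 64.3. In light-exposed A15 it was -1.42 (SE 0.517, adjusted P = 0.155), with no overlap, and DESeq2 called it (adjusted P = 0.0433). In dark A15 it was 0.31 (95% CI -0.85 to 1.46). Leaving out each of the 4 libraries in turn gave -0.61 (without dark mutant replicate 1) to 0.84.

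The other members did not pass the test between the strains in any condition. In V the largest of their differences was -0.38 for cao-2 after light (95% CI -0.76 to 0.00), and al-3 had -0.31 after light (95% CI -0.67 to 0.04). For al-1 the intervals in V were -1.28 to 0.90 in the dark and -1.30 to 0.67 after light, the widest of the 5 members. Without wild-type dark V replicate 1, al-1 was called higher in the mutant in the dark (log2FC 1.17, adjusted P = 0.0272). In dark A15 al-1 had 1.12 (95% CI -0.08 to 2.32) and al-3 0.87 (-0.77 to 2.51). Without dark mutant replicate 1 these were 0.06 and -0.34, with 1.21 for cao-2 and -1.52 for ylo-1. Without dark mutant replicate 2, cao-2 had -0.10 and ylo-1 0.66. Over the 4 fits that each left out a library, al-1 ranged from 0.06 to 1.71 and al-3 from -0.34 to 1.498. The 4 markers of conidiation also had higher means in the mutant in dark A15, with none called (median log2FC 1.46). Mutant against wild type, eas had 158300 and 58220 CPM, con-6 2098 and 777.7, con-10 2046 and 426.3, and fl 1184 and 422.2. Their part in the strain differences of the carotenoid genes in dark A15 was not tested. In S the differences were between -0.08 (cao-2) and 0.53 (al-3), leaving al-2 aside.

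The mevalonate pathway makes the precursors of carotenoids and sterols. Of 9 functions planned for a list of this pathway, 4 could be matched to annotated genes: erg-10 (NCU02571), the acetyl-CoA acetyltransferase of the first step, erg-14 (NCU00712), the HMG-CoA reductase, erg-12 (NCU03633), the mevalonate kinase, and fpp (NCU01175), the farnesyl pyrophosphate synthase whose product AL-3 extends. None of the 4 rose with light in V and 2 of 4 fell in each strain, against 7.4% of all genes called lower for the wild type and 5.73% for the Δve-1 mutant: erg-14 by 0.81 (adjusted P = 0.0113) in the wild type and by 0.72 (adjusted P = 0.0218) in the mutant on the log2 scale, and fpp by 0.40 (adjusted P = 0.0359) and by 0.46 (adjusted P = 0.0224). The calls of fpp were lost in both strains without any single library (adjusted P up to 0.134 and 0.173), that of erg-14 was lost without wild-type dark replicate 2 (0.0732) and, in the mutant, without any of 3 libraries (up to 0.157). All of them were lost in a fit of all 24 libraries, and that of fpp in the wild type also with scaling by library size (0.0629) and with only the groups compared (0.148).

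In dark A15 against S none of the precursor genes rose and 3 of 4 fell in each strain, against 9.47% of all genes called lower for the wild type and 19.2% for the Δve-1 mutant. erg-12 fell by 2.88 (adjusted P = 0.00298) in the wild type and by 2.97 (adjusted P = 0.00134) in the mutant, erg-10 by 1.09 and 1.99, and fpp by 1.40 and 2.77. In the wild type the calls of erg-10 and fpp were lost with scaling by library size (log2FC -0.71 and -1.01) and without any of 4 libraries for erg-10 (adjusted P up to 0.301) or of 3 for fpp (up to 0.190). Without dark mutant A15 replicate 1 the mutant values were -4.58 for erg-12, -2.20 for erg-10 and -3.70 for fpp, and without replicate 2 they were -2.23, -1.80 and -2.21, called in each case. No precursor gene was called between the strains in any condition.

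Genes related to carotenoids or to their regulation by light were a second list of 6. In V, 3 of 6 rose with light in both strains, against the 7.98% and 7.07% of all genes given above: vvd (log2FC 8.06 for the wild type and 8.17 for the Δve-1 mutant), wc-1 (2.05 and 2.35), for the photoreceptor of the White Collar complex, and dcc-1 (2.66 and 2.17), annotated as a gene for the control of development and carotenogenesis. wc-2 (-0.25 and -0.09) was not called, nor were cao-1 and nop-1. As with the carotenoid genes, A15 gave smaller values: vvd had 4.96 in the wild type (adjusted P = 0.0614) and 3.59 in the mutant (adjusted P = 0.129), called by DESeq2 only, and dcc-1 had 0.06 and -0.96.

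In dark A15 against S, 2 of 6 rose in the wild type (cao-1 and nop-1) and 4 of 6 in the mutant (nop-1, vvd, wc-2 and dcc-1), against the 17.5% and 25.1% of all genes called higher. In the mutant, wc-2 was not called without either dark A15 library (adjusted P = 0.0644 and 0.0698), and vvd (log2FC 1.64, adjusted P = 0.0685) and dcc-1 (0.79, adjusted P = 0.129) were not called without dark replicate 2, nor dcc-1 without S replicate 3 (0.0526). wc-2 (adjusted P = 0.134) and dcc-1 (0.0809) were also lost with only the groups compared and with the title number as a block (0.0842 and 0.0605). The library code number as a block also lost wc-2 (0.0807), and nop-1 kept its call in each of these fits. nop-1, for an opsin that binds retinal, had at most 1.53 CPM in any S library and 38.0 to 115.5 CPM in dark A15. cao-1, for a dioxygenase of the same family as CAO-2, was between 0.159 and 1.53 CPM in S, near the 3-count floor, and had 7.17 and 6.83 CPM in dark wild-type A15 against 1.19 and 0.413 in the mutant. It was the only gene of the list that was called between the strains, lower in the mutant in dark A15 (log2FC -3.11, adjusted P = 0.0431) and in light-exposed A15 (-3.87, adjusted P = 0.0275). After light cao-1 had 0.206 and 0.393 CPM in the mutant (4 to 7 counts), also near the floor, and 2.44 and 6.02 CPM in the wild type. In dark mutant A15 it had 6 to 21 counts. The calls of cao-1 were lost without any of 3 of the 4 libraries in the dark (log2FC -4.07 to -2.60) and after light (-4.37 to -3.09). In edgeR they did not pass the thresholds of the study, which used DESeq2. Those thresholds were not applied to DESeq2 values here. Of 8 alternatives that kept every library, 7 kept each call, and the thresholds of the study were the exception. The torulene dioxygenase gene cao-2, with a log2FC of 0.72 in dark and in light-exposed A15, was not called between the strains.

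Over the 24 libraries, al-1, al-2, al-3 and cao-2 followed each other, with Pearson correlations of log2 CPM between 0.8288 (al-3 with cao-2) and 0.963 (al-1 with al-3), and ylo-1 went with none of them (-0.345 to -0.528). These libraries share 5 stages and light conditions, which set most of the spread, so the correlations are a description. Among 8269 genes, those most like al-1 were NCU02190 (0.983, annotated as an oxysterol-binding protein), bli-4 (0.966) and NCU07434 (0.956, a short-chain dehydrogenase). For al-2 they were vvd (0.955), NCU02190 (0.933) and phr (0.931), for the photolyase, and for al-3 NCU08770 (0.963), NCU07434 (0.961) and NCU02190 (0.960). cao-2 was closest to NCU10063 (0.955), NCU08948 (0.941) and vvd (0.930). The genes nearest to ylo-1 followed it less closely: NCU08044 (0.863), NCU09473 (0.846) and NCU01839 (0.842).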

How the data were processed

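The 24 libraries were grouped by strain, stage and light from their labels, and all were used. Members and gene lists were chosen with earlier results of these data known. The precursor list, the 6 related genes and the 4 markers were named by role, and the 3 genes most like each member by Pearson correlation over the libraries. NCU00584 was chosen after its values were seen.

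Reads (single-end, 100 nucleotides) were filtered by the authors with AfterQC 0.9.6, checked with FastQC 0.11.8, mapped to the NC12 assembly with TopHat 2.11 and counted over exons with SeqMonk 1.45.4. The deposited values were raw read counts, not normalized, for 9758 genes, of which 9757 were in the RefSeq table used for symbols. Poly(A) selection precedes these counts, and replicates were not pooled.

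Counts were fitted with edgeR 4.0.16 (limma 3.58.1, R 4.3.3) by the quasi-likelihood test, with TMM scaling and filterByExpr at a minimum count of 10, in V (8 libraries, 7760 genes), A15 (8, 8193), S with A15 (16, 8239) and all 24 (8269). Benjamini-Hochberg adjustment of P covered all genes of a fit, and a gene was called at an adjusted P under 0.05. The SE was the size of the log2FC over the square root of F, and intervals are at 95%. Levels are mean ± SD of CPM, and correlations used log2 CPM with a prior count of 2. The test was checked on simulated data. Limits on the share of changed genes called and on false calls were set for V only, so the check does not cover calls in A15. The 3-count floor covers counting error only.

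Alternatives were the RLE method, library size only, no filter, DESeq2 1.42.0, all 24 libraries, only the groups compared, the thresholds of the study (adjusted P under 0.001 and log2FC of at least 2), a replicate block, and each replicate left out. The thresholds of the study were applied to the edgeR fits, whereas the study used DESeq2.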

Additional observations from a re-analysis of the deposited data

Results flagged for a closer look

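In the groups of 4 libraries, 2 of 32 checks for a library far from the others were positive, and chance alone gives about 1 in 20. One was cao-1 in wild-type S replicate 4, at 1.53 CPM, where the gap to the next library was 0.922 of the range. The other was ve-1 in mutant S replicate 1, at 17.3 CPM, with a gap of 0.881 of the range. The values of al-1, al-2, al-3 and cao-2 without that library are given with the comparison of dark A15 and S.

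The responses to light of V and A15 differed by a test of the difference itself. In the wild type the log2FC in V exceeded that in A15 by 5.98 for al-1, 3.63 for al-3, 4.60 for cao-2 and 2.62 for dcc-1. In the mutant it did so by 7.36 for al-1, 4.66 for al-2, 3.97 for al-3, 4.21 for cao-2, 3.08 for dcc-1 and 4.52 for vvd. The difference for vvd was 3.13 in the wild type and was not called (adjusted P = 0.214). The call of vvd in the mutant was lost without any of 7 of the 8 libraries (adjusted P up to 0.248) and with only the groups compared (0.0521). That of dcc-1 in the wild type was lost with scaling by library size (0.0567), with only the groups compared (0.0885) and without either of 2 libraries (up to 0.0914). Whether the strains differ in this contrast was not tested.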

How the results depend on the processing

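Over the fits that kept every library, the single-gene log2FC kept direction and side of the threshold in 986 cases, lost a call in 69, gained one in 13 and changed sign in 6. None of those that changed sign had been called: cao-2 in the strain difference of the A15 light response (-0.0102 with the RLE method and -0.0102 with DESeq2), ylo-1 in dark A15 against S in the wild type (0.28 with library size only, 0.18 and 0.18 with the title and library code numbers as a replicate block) and al-3 between the strains in light-exposed A15 (0.0649 in a fit of all 24 libraries).

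The number of members called moved by over 1.5 times as follows. With the thresholds of the study it was 0 between the strains in dark V and 0 in light-exposed V, and the light response differed between V and A15 for 1 member (wild type) and 2 (mutant). A fit of all 24 libraries gave 0 and 0 between the strains in dark and light-exposed V and 1 for light in wild-type A15. DESeq2 gave 2 for light in wild-type A15 and 1 between the strains in light-exposed A15. Fitting only the groups compared gave 1 for light in wild-type A15 and 2 for V against A15 in the mutant. Smaller changes were also seen. The thresholds of the study gave 2 (wild type) and 3 (mutant) for dark A15 against S and 4 in each strain for light-exposed A15 against S. Library size only gave 4 for dark A15 against S in the wild type, 4 in each strain for light-exposed A15 against S, and 2 and 3 for V against A15. DESeq2 gave 5 for light in V in the mutant. The causes were not tested, except that the study's thresholds are stricter by construction.

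Same-numbered libraries of the strains did not deviate together in every pair (in S, correlations of -0.385, 0.361, 0.650 and -0.237, and 2 of 4 best matched by their own number). In V they did, with 0.369 in the dark and 0.472 after light between the strains and 0.461 and 0.406 between dark and light, and in A15 the strains gave 0.0807 in the dark and 0.164 after light. With 2 numbers in V and A15 and no label for a shared culture or day, the numbers were not taken as pairs. With the title number as a replicate block, the members called between the strains in dark V became 2 (al-2 and ylo-1), and ylo-1 was called lower after light in V in both strains (adjusted P = 0.00689 and 0.00193). In all, 6 of 18 counts of members called changed by any amount with the title number and 1 of 5 with the library code.

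Leaving out each library in turn gave between 0 and 2 members called for light in mutant A15 and between the strains in dark A15 (2 only without dark mutant replicate 1), 1 to 2 between the strains in dark V (2 without wild-type replicate 1), 0 to 1 in light-exposed V and 2 to 4 for V against A15 in the mutant. Signs changed within these ranges. Between the strains they were -0.86 to 1.17 (al-1) and -0.25 to 0.0829 (cao-2) in dark V, -0.61 to 0.84 (al-2), -0.34 to 1.498 (al-3), -0.10 to 1.21 (cao-2) and -1.52 to 0.66 (ylo-1) in dark A15, -0.69 to 1.31 (al-3) in light-exposed A15, and -0.0431 to 0.81 (al-1) and -0.28 to 0.16 (cao-2) in S. For light they were -0.0232 to 1.29 (cao-2) and -1.72 to 0.46 (ylo-1) in mutant A15, and -1.03 to 1.19 (ylo-1) for V against A15 in the mutant. For A15 against S they were -0.28 to 0.10 (wild type) and -1.98 to 0.25 (mutant) for ylo-1. For the strain differences they were -1.48 to 0.54 (al-1) and -0.26 to 0.0661 (ylo-1) with light in V, -1.55 to 0.44 (al-3), -0.49 to 0.82 (cao-2) and -0.0491 to 2.14 (ylo-1) with light in A15, and -0.20 to 1.503 (al-1), -0.91 to 0.98 (al-3), -0.00409 to 1.26 (cao-2) and -1.84 to 0.40 (ylo-1) with conidiation.

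The 4 members called for light in V in each strain were the same in each of these alternatives, with ylo-1 added in some. With 2 libraries in most groups, A15 shows only large differences, and no member was near the 3-count floor.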

Other observations

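The gene next to al-2 was looked at after its values were seen. NCU00584, of unknown function, starts on the plus strand at I:7924267 and lies 11 bases from al-2, which is read in the other direction. Its mRNA went from 34.2 CPM in dark V to 214 CPM after light in the wild type and from 31.3 to 149 CPM in the mutant. The log2FC in V was 2.63 (adjusted P = 8.84e-06) and 2.26 (adjusted P = 2.37e-05), so that it rose in both strains, less than al-2. In A15 it had 46.0 and 51.1 CPM in the dark and 134 and 106 CPM after light in the wild type, with no overlap (log2FC 1.32, adjusted P = 0.423), and 80.0 and 27.5 CPM against 69.6 and 48.0 CPM in the mutant, with overlap. It was not called between dark A15 and S in either strain (-0.31 and -0.38), where al-2 was called in the mutant, and it was not called between the strains in any condition (in light-exposed V -0.51, adjusted P = 0.0513).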
